A study of Mus musculus with 6 samples.

Results

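The genes described here are those whose symbol starts with Nduf, the nuclear genes of mitochondrial complex I and of the factors that build it. Every such symbol in the authors' table was taken, which gave 44 genes of the 12072 listed. By role they were 7 core subunits, 28 accessory subunits and 7 assembly factors of the Ndufaf family, together with Ndufa4 and Ndufa4l2. Ndufa4 keeps a complex I name but is now counted as a subunit of cytochrome c oxidase, and Ndufa4l2 is its paralogue. The Ndufs and Ndufv names held all 7 core subunits and 3 accessory ones, Ndufs4, Ndufs6 and Ndufv3, so those 3 were kept apart from the core. Ndufs5, Ndufb1, Ndufaf8 and the complex I subunits encoded by mitochondrial DNA were not analysed here.

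Left ventricular RNA came from 30-week-old chow-fed mice of 2 genotypes, 6 animals each: CS-Mpc2-/- mice, in which the mitochondrial pyruvate carrier gene Mpc2 is deleted in the heart, and fl/fl mice, which carry the floxed gene without that deletion. Each library pooled the RNA of 2 hearts, so each group had 3 libraries of separate animals, and the SD and p-values below measure the spread between pools. The labels do not name the Cre driver, so the cells in which the gene was removed cannot be given from them. Libraries were ribosomal RNA-depleted total RNA, sequenced on an Ion Torrent Proton, and the study's title concerns glycogen storage and heart failure after loss of pyruvate import.

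Complex I takes electrons from NADH, which pyruvate and fatty acid oxidation supply, passes them through flavin and iron-sulfur centres to ubiquinone, and pumps protons across the inner mitochondrial membrane. Its core subunits carry the NADH-oxidising and ubiquinone-reducing centres, the accessory subunits surround and stabilise them, and assembly factors bind intermediates without remaining in the finished enzyme. Heart muscle, packed with mitochondria, is among the tissues richest in it.

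Promoter sequence was looked at first, because respiratory chain genes are known targets of nuclear respiratory factor 1 (NRF1). RefSeq promoter windows on GRCm38.p6, the 250 bases before the start annotated by RefSeq, were available for 38 of the 44 genes. A motif of NRF1-binding sites, GCGC repeated after a gap of NT (N for any base) and searched on both strands, was in 6 of these 38 windows (15.8%), against 3.86% of 27025 mouse promoters. The Nduf windows were also richer in G and C, with a median of 58.2% against 52.0% for all promoters, which bears on a motif made mostly of these bases. The GABP motif CCGGAAG was in 4 of 38 (10.5%, against 7.05% of all promoters), the ERR motif AAGGTCA in 2 (5.26%, against 4.05%), and the YY1 motif AAGATGGC in 0 (against 1.59%). A match is a description of the letters only. GENCODE M21, used here for gene positions, places the start of some genes elsewhere. By its gene spans the motifs printed for Ndufs6, Ndufa8 and Ndufa5 lie within the gene and not before it. The windows with the NRF1 motif are shown because they are what a group of the genes shares in sequence; each is printed 5′ to 3′ on the gene's strand with the motif in capitals.
Ndufa11, chr17:56717692-56717721, plus strand: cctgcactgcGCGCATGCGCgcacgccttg
Ndufs6, chr13:73328483-73328508, minus strand: cgactgctgtGCGCCTGCGCcggcac
Ndufa5, chr6:24527697-24527726, minus strand: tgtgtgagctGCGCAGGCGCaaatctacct
Ndufb4, chr16:37654540-37654569, minus strand, 1 of 3 matches in its window: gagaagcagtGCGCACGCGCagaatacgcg
Ndufa8, chr2:36049349-36049378, minus strand: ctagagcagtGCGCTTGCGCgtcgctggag
Ndufaf4, chr4:24897960-24897989, plus strand: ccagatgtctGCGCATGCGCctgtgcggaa

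The 6 genes with this motif did not lie on one side of 0 in the comparison of genotypes. Their log2 differences, CS-Mpc2-/- minus fl/fl, were 0.48 for Ndufa11, 0.19 for Ndufs6, 0.13 for Ndufa5, 0.01 for Ndufb4, -0.06 for Ndufa8 and -0.32 for Ndufaf4, and none passed the test described below. Nrf1 itself averaged 22.2 ± 4.09 ppm in CS-Mpc2-/- and 21.1 ± 3.95 ppm in fl/fl libraries (SD, n = 3 each).

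Values are the deposited read coverage of a gene per 1000000 units of the library total (ppm), and differences are on the log2(ppm + 1) scale. The coverage behind them, in units of 1000000 of a library's smallest step, was 278 to 319 in CS-Mpc2-/- and 92.9 to 389 in fl/fl libraries. The targeted gene went against 1 label. Mpc2 coverage in CS-Mpc2-/- libraries 1, 2 and 3 stood at 14.9, 18.2 and 46.3 ppm, against 45.2, 38.9 and 27.7 ppm in fl/fl libraries 1, 2 and 3. The library labelled CS-Mpc2-/- replicate 3 was therefore above every fl/fl library, and fl/fl replicate 3 was the lowest of its group. Of the markers of the labelled tissue 10 of 10 for cardiomyocytes were listed, as were 0 of 4 adipocyte, 1 of 4 atrial, 3 of 5 erythroid and 4 of 5 skeletal muscle markers. The skeletal muscle markers summed to 3372, 2495 and 2607 ppm in CS-Mpc2-/- and 5471, 3703 and 2775 ppm in fl/fl libraries, nearly all of it from Ckm, which heart muscle also expresses, and the erythroid markers to 468, 727 and 919.9 ppm in CS-Mpc2-/- and 567, 836 and 772 ppm in fl/fl libraries. Myh1, another of the skeletal muscle markers, had 21.1, 21.2 and 15.3 ppm in CS-Mpc2-/- and 55.1, 33.4 and 11.2 ppm in fl/fl libraries. Without fl/fl replicate 3, 2 of the 4 listed skeletal muscle markers and 2 of the 10 cardiomyocyte markers were called lower, against 4.40% of all genes. Myh1 was among those called (limma adjusted p = 0.0147) and Ckm was not (0.0657). Called higher were 7 of 10 fibroblast, 2 of 6 macrophage, 2 of 8 endothelial and 1 of 7 smooth muscle and pericyte markers. Of all genes 6.51% were called higher in that fit. No erythroid or atrial marker was called. The part of other cells in the results was not tested. Cardiomyocyte markers summed to 146299 to 151069 ppm in CS-Mpc2-/- libraries and to 194817, 186638 and 148404 ppm in fl/fl replicates 1, 2 and 3. The 10 fibroblast markers, all listed, summed to 2278 to 5711 ppm in CS-Mpc2-/- and to 1096, 979.7 and 1939 ppm in fl/fl libraries, and the 6 listed macrophage markers of 8 to 304 to 393 ppm against 195, 233 and 289 ppm. Whether these shifts have a part in the values below was not tested, and in bulk tissue fewer cardiomyocytes and less RNA per cardiomyocyte cannot be told apart. Because both libraries numbered 3 stand apart, counts of calls and the medians of the main gene groups are also given without them, with values for some single genes.

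Complex I genes were among the more abundant nuclear transcripts of the ventricle. Per kilobase of transcript, the median gene among the core subunits averaged 174 ppm per kb over the 6 libraries, against a median of 7.55 ppm per kb for all listed genes. Among all listed genes the median depended on length, at 55.9 under 700 nt and 15.9 from 700 to under 1000 nt. It was 9.91 from 1000 to under 1500 nt and 6.77 at 1500 nt or more. The 25 accessory subunits named Ndufa, Ndufab, Ndufb and Ndufc, of median length 704 nt, had a median of 101 ppm per kb. Ndufs4, Ndufs6 and Ndufv3 had a median of 40.7. The Ndufaf assembly factors lay far lower and close together, at 6.05 to 10.5 ppm per kb with a median of 7.81, near that of all genes. The most abundant member per kb was Ndufb8, an accessory subunit of the membrane arm, at 629 ppm per kb. Ndufb9, another accessory subunit of the membrane arm, stood at 472, and Ndufv1, which holds the flavin that oxidises NADH, at 300.1 ppm per kb. The lowest was Ndufab1, the mitochondrial acyl carrier protein, at 3.15 ppm per kb, a value that rests on an annotated transcript of 3479 nt and would be higher on a shorter one.

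**Figure D1:**
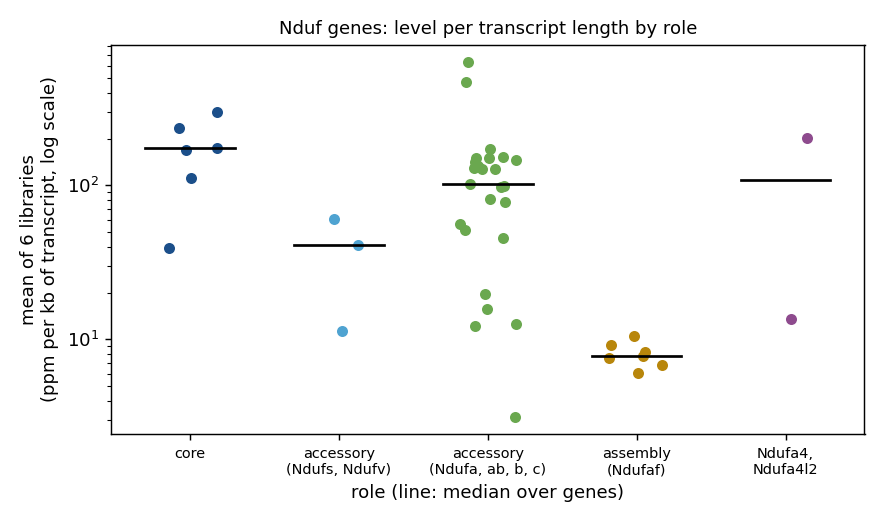
Mean coverage of 43 of the 44 Nduf genes over 6 libraries, per kb of transcript on a log scale, by role, with the median over all genes of each role as a line. Core and most accessory subunits lie well above the 7 assembly factors, which cluster between 6.05 and 10.5 ppm per kb.

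With all 6 libraries, no Nduf gene differed between the genotypes after correction. Limma with Benjamini-Hochberg adjustment called 0 of 44 at an adjusted p of 0.05, with adjusted p-values of 0.271 to 0.988, and it called 0.0% of the 12072 genes, none higher and none lower. At an unadjusted p of 0.05 it marked 4 members (9.09%), with Ndufb11, Ndufa11 and Ndufa4 higher and Ndufa10 lower in CS-Mpc2-/- hearts. The background was 13.5% of all genes, 8.08% higher and 5.43% lower, so the share of members was below it. The 3 CS-Mpc2-/- libraries lay wholly above the 3 fl/fl libraries for 3 members, Ndufa1, Ndufb11 and Ndufaf7, and wholly below for 0. That is 6.82% of members, against 14.5% of all genes, of which 8.01% were higher and 6.48% lower. The authors' deposited table has a p under 0.05 for 2 members, Ndufb11 (0.0449) and Ndufaf7 (0.0243), against 6.18% of all genes.

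Differences within the family were small and went both ways. The log2 difference was positive for 26 and negative for 18 of the 44 genes and ran from -0.58 (Ndufa10) to 0.65 (Ndufc1), with a median of 0.05, beside 0.04 for all listed genes. For 29 genes it lay within 0.25 of 0. The SE ranged from 0.16 to 0.40 with a median of 0.22, and for 24 of the 44 genes the difference was no larger than its SE. The absolute difference had a median of 0.20 for the members and 0.24 for all genes. Summed over the 44 genes, coverage was 5221, 5133 and 5916 ppm in CS-Mpc2-/- replicates 1, 2 and 3, and 5533, 5504 and 5539.9 ppm in fl/fl replicates 1, 2 and 3. The fl/fl sums were nearly equal, and the CS-Mpc2-/- sums lay on both sides of them.

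The high CS-Mpc2-/- sum belongs to the library whose Mpc2 level did not match its label. The library labelled CS-Mpc2-/- replicate 3 was the highest of the 6 for 21 of the 44 Nduf genes (47.7%). It was the highest for 2533 of all 12072 listed genes (20.98%). The nuclear subunits of complexes II to V resembled the Nduf genes, with 46.5% of 43 genes highest in that library. Among genes under 1000 nt, that library was the highest for 56.0% of Nduf genes and 32.89% of listed genes. At 1000 nt or more these shares were 36.84% and 20.01%. At the other end, fl/fl replicate 1, the shallowest library, was the lowest for 14 Nduf genes (31.8%), beside 25.5% of all genes. Under 1000 nt it was the lowest for 40.0% of Nduf genes and 33.7% of listed genes, and at 1000 nt or more for 21.1% and 24.8%. With CS-Mpc2-/- replicate 3 omitted, the median difference of the Nduf genes was -0.04 and 20 of 44 were positive. Without replicate 3 of both groups it was -0.06 and 18 were positive. The nuclear subunits of complexes II to V also had a median of -0.06 in that fit, with 18 of 43 positive.

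**Figure D2:**
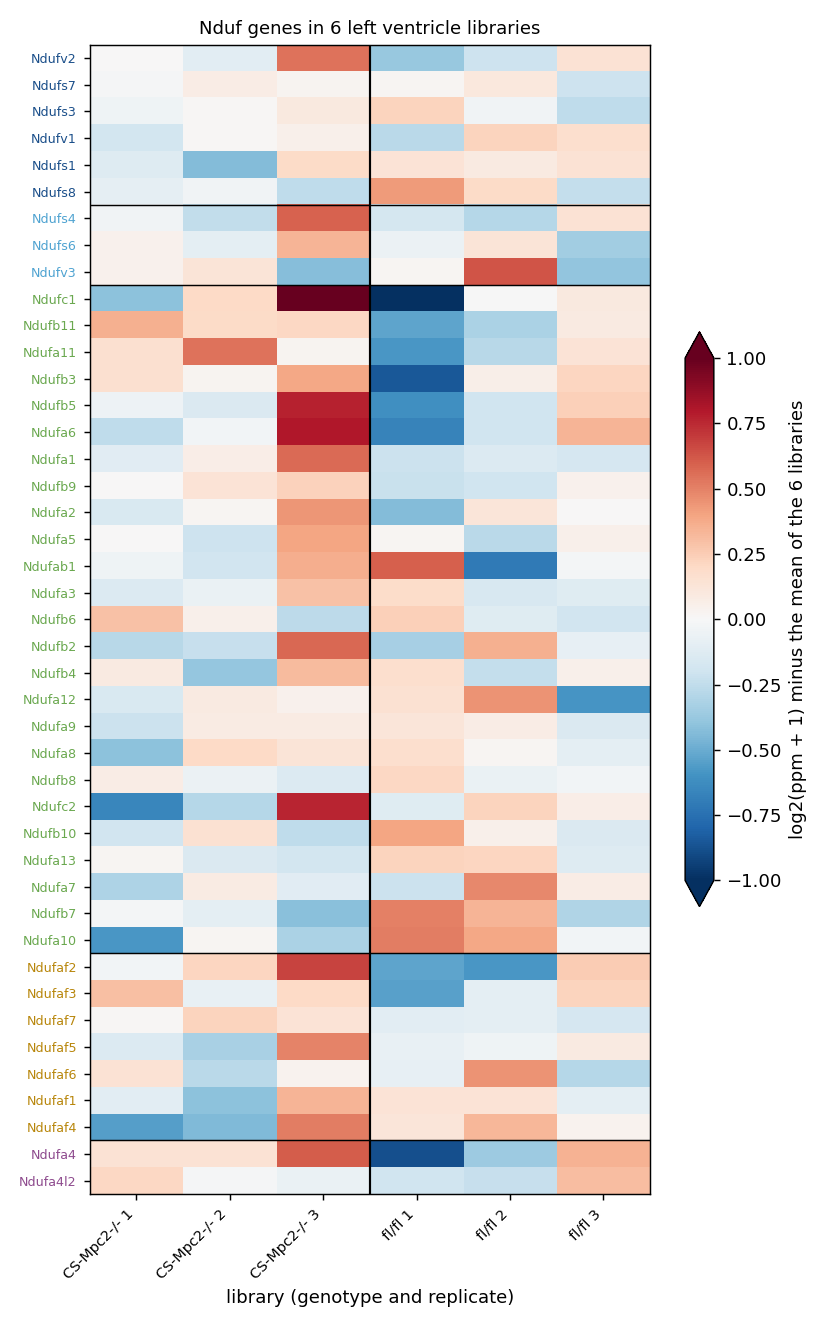
For 43 of the 44 Nduf genes, each library as log2(ppm + 1) minus the gene's mean over 6 libraries, with CS-Mpc2-/- libraries left and fl/fl libraries right. From top to bottom the blocks are core subunits, the accessory subunits Ndufs4, Ndufs6 and Ndufv3, the other accessory subunits, assembly factors, and Ndufa4 with Ndufa4l2. The library labelled CS-Mpc2-/- replicate 3 is the highest for 21 of these genes, and fl/fl replicate 1 the lowest for 14.

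The core subunits had a median log2 difference of -0.08 (-0.11 without replicate 3 of both groups), with 3 positive and 4 negative, and none passed the limma test. Ndufs1, the largest iron-sulfur subunit of the NADH-oxidising arm, had 565, 458 and 704 ppm in CS-Mpc2-/- libraries and 678, 657 and 685 ppm in fl/fl libraries. Its fl/fl libraries were tightly grouped (673 ± 14.5 ppm, SD, n = 3), while the CS-Mpc2-/- libraries spread widely (576 ± 123 ppm), with replicates 1 and 2 below and replicate 3 above all fl/fl libraries. The difference was -0.25 (SE 0.18, adjusted p = 0.575), and -0.40 after omitting the library labelled CS-Mpc2-/- replicate 3.

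Ndufs8, an iron-sulfur subunit on the route to ubiquinone, had 155, 161 and 138 ppm in CS-Mpc2-/- libraries and 222, 188 and 139 ppm in fl/fl libraries. Only fl/fl replicate 3 reached into the CS-Mpc2-/- range, and the difference of -0.25 (SE 0.19, limma adjusted p = 0.577) was -0.44 without that library (adjusted p = 0.118). Ndufv2, which carries an iron-sulfur centre beside the flavin, leaned the other way, with 185, 172 and 271 ppm in CS-Mpc2-/- libraries and 142, 160.0 and 205 ppm in fl/fl libraries. The highest value was again in the library labelled CS-Mpc2-/- replicate 3. Its difference was 0.29 (SE 0.21, adjusted p = 0.555), and 0.09 without that library. The core subunits Ndufv1, Ndufs3 and Ndufs7 differed by -0.08, 0.04 and 0.06.

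The 3 accessory subunits that share the Ndufs and Ndufv names had differences whose sign depended on the libraries used. Ndufs4, whose loss in mice and people causes a severe mitochondrial disease, had 65.9, 56.8 and 102 ppm in CS-Mpc2-/- libraries and 59.8, 55.3 and 74.9 ppm in fl/fl libraries. The libraries numbered 3 were the highest of both groups, and the difference of 0.21 (SE 0.23, limma adjusted p = 0.712) was -0.04 after omitting the library labelled CS-Mpc2-/- replicate 3. Ndufs6, which takes part in adding the NADH-oxidising module, had 35.0, 31.7 and 43.1 ppm in CS-Mpc2-/- libraries and 32.5, 37.2 and 26.5 ppm in fl/fl libraries. The groups overlapped, and the difference of 0.19 (SE 0.21, adjusted p = 0.715) was -0.06 without replicate 3 of both groups. Ndufv3, an accessory subunit beside the flavin site, had 17.9, 19.1 and 12.6 ppm in CS-Mpc2-/- libraries and 17.6, 27.4 and 12.9 ppm in fl/fl libraries. Replicate 3 was the lowest of each group, and the difference of -0.17 (SE 0.29, adjusted p = 0.822) was 0.10 without fl/fl replicate 2.

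Among the 25 accessory subunits named Ndufa, Ndufab, Ndufb and Ndufc the median difference was 0.05, with 15 positive and 10 negative, and it was -0.07 without replicate 3 of both groups. Ndufa10, a membrane arm subunit facing the matrix, on chromosome 1 at 92439010 to 92473860 (mm10, 10 exons), had 129, 196 and 155 ppm in CS-Mpc2-/- libraries, against 276, 253 and 190.1 ppm in fl/fl libraries. Only CS-Mpc2-/- replicate 2 and fl/fl replicate 3 crossed, and they did so narrowly. Means were 160.1 ± 34.2 ppm in CS-Mpc2-/- and 240.0 ± 44.7 ppm in fl/fl libraries (SD, n = 3 each), and the difference was -0.58 (SE 0.20, limma adjusted p = 0.271).

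Ndufb11, an X-linked accessory subunit of the membrane arm at 20615326 to 20617619 on chromosome X (3 exons), had 174, 155 and 157 ppm in CS-Mpc2-/- libraries, against 93.6, 108 and 144 ppm in fl/fl libraries. Every CS-Mpc2-/- library was above every fl/fl library, with fl/fl replicate 3 the nearest. The difference was 0.51 (SE 0.18, limma adjusted p = 0.290), and an exact two-sided permutation test of 3 against 3 gave p = 0.1, the smallest that 20 arrangements allow. Ndufa11, a membrane subunit near the contact with complex III in supercomplexes, on chromosome 17 at 56717767 to 56722141 (4 exons), had 101, 132 and 92.3 ppm in CS-Mpc2-/- libraries and 60.0, 74.7 and 99.5 ppm in fl/fl libraries. Here fl/fl replicate 3 was above the library labelled CS-Mpc2-/- replicate 3, and the difference was 0.48 (SE 0.21, adjusted p = 0.360).

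Ndufa1, a small X-linked membrane subunit needed for assembly, had 29.7, 33.8 and 48.2 ppm in CS-Mpc2-/- libraries and 27.6, 29.3 and 28.5 ppm in fl/fl libraries. The groups did not overlap, but CS-Mpc2-/- replicate 1 and fl/fl replicate 2 were nearly equal, and the difference of 0.35 (SE 0.21, limma adjusted p = 0.496) was 0.15 after omitting the library labelled CS-Mpc2-/- replicate 3. Ndufb8, the most abundant member per kb, had 448, 410.2 and 388 ppm in CS-Mpc2-/- libraries and 494, 407 and 419 ppm in fl/fl libraries. CS-Mpc2-/- replicate 3 lay below and fl/fl replicate 1 above the other group's range, and the remaining libraries overlapped, with a difference of -0.08 (SE 0.16, adjusted p = 0.859). The largest positive value of the family, 0.65 for the short membrane subunit Ndufc1, rested on the library labelled CS-Mpc2-/- replicate 3: its values were 11.5, 18.1 and 37.0 ppm in CS-Mpc2-/- libraries and 6.96, 15.6 and 16.8 ppm in fl/fl libraries, and the difference was 0.22 without that library. For the other accessory subunits the difference lay between -0.36 (Ndufb7) and 0.39 (Ndufb3).

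**Figure D3:**
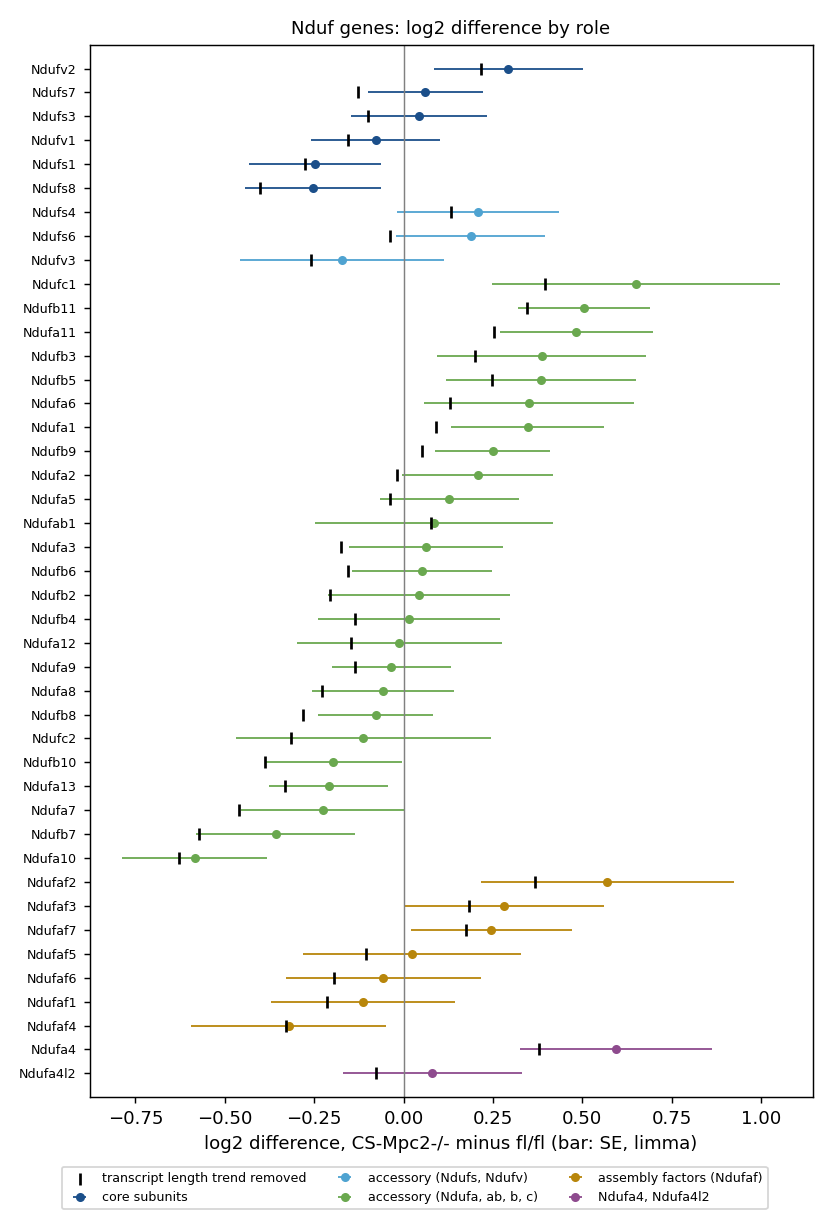
Log2 difference, CS-Mpc2-/- minus fl/fl, of 43 of the 44 Nduf genes with its standard error from limma (points and bars, 6 libraries), and the difference after each library's transcript length trend was removed (black marks), by role. Values run from -0.58 for Ndufa10 to 0.65 for Ndufc1, and the black marks lie to the left of all these points.

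The 7 Ndufaf assembly factors had a median difference of 0.02 (-0.01 under upper quartile or median-of-ratios scaling, and -0.17 without replicate 3 of both groups), with 4 positive and 3 negative, and their summed coverage was 81.0, 76.1 and 115 ppm in CS-Mpc2-/- libraries and 85.1, 98.1 and 87.9 ppm in fl/fl libraries. Ndufaf2, a chaperone that stands in for an accessory subunit late in assembly, had 4.88, 5.96 and 8.58 ppm in CS-Mpc2-/- libraries and 3.18, 3.01 and 6.16 ppm in fl/fl libraries. The libraries numbered 3 were the highest of each group, and the difference was 0.57 (SE 0.35, limma adjusted p = 0.499). Ndufaf4, which acts with Ndufaf3 early in assembly, had 19.5, 21.1 and 41.9 ppm in CS-Mpc2-/- libraries and 31.6, 36.8 and 29.8 ppm in fl/fl libraries. Replicates 1 and 2 of CS-Mpc2-/- were below, and the library labelled CS-Mpc2-/- replicate 3 above, all fl/fl libraries. Its difference of -0.32 (SE 0.27, adjusted p = 0.615) was -0.72 without replicate 3 of both groups (adjusted p = 0.0591).

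Ndufaf7, a methyltransferase of the mitochondrial matrix, was the assembly factor whose groups did not overlap, with 13.3, 15.6 and 14.6 ppm in CS-Mpc2-/- libraries and 12.2, 12.3 and 11.7 ppm in fl/fl libraries. The spread was narrow in both groups, and the difference was 0.25 (SE 0.22, limma adjusted p = 0.649). Ndufaf3 had 12.4, 9.30 and 11.4 ppm in CS-Mpc2-/- libraries and 6.46, 9.16 and 11.7 ppm in fl/fl libraries, with a difference of 0.28 (SE 0.28, adjusted p = 0.676) that was 0.46 without fl/fl replicate 3. Ndufaf5, Ndufaf6 and Ndufaf1 differed by 0.02, -0.06 and -0.11. Of 14 assembly factors of complex I under other names, 11 were listed and none passed the test, with 6 positive, 5 negative and a median of 0.06 (-0.05 without replicate 3 of both groups). The smallest unadjusted p-values in that list belonged to Ecsit, an assembly factor that also acts in innate immune signalling, at 26.5 ± 4.37 ppm in CS-Mpc2-/- and 37.1 ± 9.20 ppm in fl/fl libraries (SD, n = 3 each), and to Lyrm2, at 17.7 ± 3.80 ppm in CS-Mpc2-/- and 12.3 ± 5.42 ppm in fl/fl libraries.

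Ndufa4, the cytochrome c oxidase subunit, had 130.3, 130.3 and 180.1 ppm in CS-Mpc2-/- libraries and 63.7, 91.6 and 150.3 ppm in fl/fl libraries. Only fl/fl replicate 3 reached the CS-Mpc2-/- range, and the difference was 0.59 (SE 0.27, limma adjusted p = 0.366). Ndufa4l2, known as a hypoxia-induced relative, had a far lower level than Ndufa4, at 13.6 against 204 ppm per kb over all libraries. It had 14.7, 12.5 and 12.0 ppm in CS-Mpc2-/- libraries and 10.9, 10.6 and 15.8 ppm in fl/fl libraries, with a difference of 0.08 (SE 0.25, adjusted p = 0.913) that was 0.25 without fl/fl replicate 3.

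Leaving out fl/fl replicate 3, and no other single library, brought Nduf genes past the threshold. Limma then called 4 members. In CS-Mpc2-/- libraries Ndufb11 was higher by 0.68 (SE 0.17, adjusted p = 0.0217), Ndufa11 by 0.67 (SE 0.20, adjusted p = 0.0460) and Ndufa4 by 0.92 (SE 0.21, adjusted p = 0.0135). Ndufa10 was lower there by 0.74 on the log2 scale (SE 0.19, adjusted p = 0.0241). With all 6 libraries these differences were smaller. For 37 of the 44 members fl/fl replicate 3 lay on the CS-Mpc2-/- side of the mean of fl/fl replicates 1 and 2. The calls depend on the library omitted. Mpc2 itself was not called without fl/fl replicate 3 (-0.82, limma adjusted p = 0.162). In that fit 10.9% of all genes were called, 6.51% higher and 4.40% lower, so 4 of 44 is close to the background. The same 4 members were called in the same directions without replicate 3 of both groups, where 12.5% of all genes were called, 7.24% higher and 5.30% lower. Their differences there were 0.70 for Ndufb11, 0.78 for Ndufa11, 0.76 for Ndufa4 and -0.73 for Ndufa10, with adjusted p-values of 0.0132 to 0.0219. Mpc2 was called lower without replicate 3 of both groups (-1.30, limma adjusted p = 0.00279). No core subunit and no assembly factor was called in either fit. With 7 genes in each of these classes, 0 calls do not set them apart from the 10.9% and 12.5% of all genes.

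**Figure D4:**
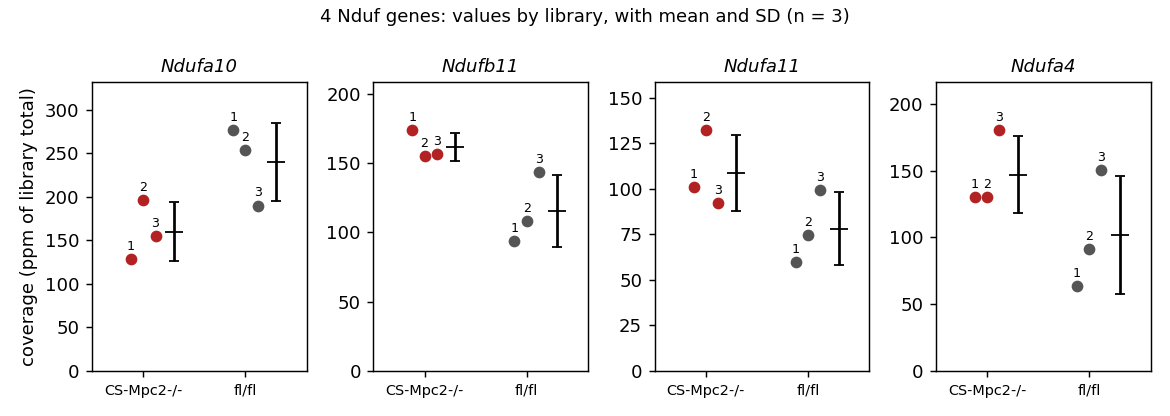
Coverage of Ndufa10, Ndufb11, Ndufa11 and Ndufa4 in each library (points numbered by replicate, CS-Mpc2-/- left, fl/fl right) with the mean and SD of the 3 libraries of each group, on axes from 0. In each gene fl/fl replicate 3 is the fl/fl library nearest the CS-Mpc2-/- libraries or within their range.

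Transcript length moved with these values. The Nduf transcripts are short, with a median of 921 nt beside 3006 nt for all listed genes. Short genes as a whole had a positive median difference, but by library the groups overlapped. All listed genes under 700 nt summed to 62736, 62075 and 87543.5 ppm in CS-Mpc2-/- and to 59113, 57058.5 and 74420 ppm in fl/fl libraries. Members under 700 nt had a median difference of 0.19 (15 genes), beside 0.25 for all 447 listed genes of that length. Members from 700 nt to under 1000 nt stood at 0.07 (10 genes) beside 0.18 for 453 genes, and those from 1000 nt to under 1500 nt at -0.01 (9 genes) beside 0.13 for 1090 genes. Members of 1500 nt or more had a median of -0.12 (10 genes) beside 0.02 for 9997 genes. In each length class the median of the members was therefore below that of all genes of like length. Without replicate 3 of both groups the medians of the members in these 4 classes were 0.09, -0.00, -0.17 and -0.14, beside 0.26, 0.20, 0.16 and 0.02 for all genes. Across the 44 genes the Spearman correlation of the difference with length was -0.36, and across 11987 listed genes with a known length it was -0.12. These are descriptions across genes of the same 6 libraries.

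**Figure D5:**
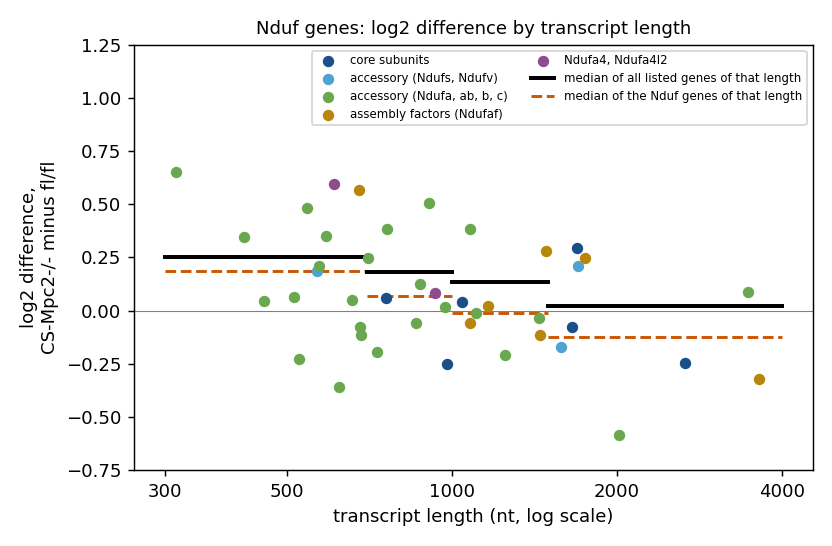
Log2 difference, CS-Mpc2-/- minus fl/fl, of 43 of the 44 Nduf genes against transcript length on a log scale, coloured by role. Solid lines give the median of all listed genes in 4 length classes and dashed lines that of all 44 Nduf genes, which was lower in each class, at 0.19, 0.07, -0.01 and -0.12.

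When the length trend of each library was removed, the median of the Nduf genes was -0.13, beside 0.01 for all listed genes. Of the 44 genes 15 were positive and 29 negative, and 11 changed sign. The nuclear subunits of complexes II to V leaned the same way, with a median of -0.11 and 14 of 43 positive. The core subunits then stood at -0.16 and the 25 Ndufa, Ndufab, Ndufb and Ndufc subunits at -0.14. None of the 44 was called. Ndufb11, Ndufa11 and Ndufa4 kept positive differences of 0.34, 0.25 and 0.38, and Ndufa10 had -0.63.

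The balance of accessory to core subunits also differed between the groups as summed coverage. The 28 accessory subunits summed to 0.994, 1.13 and 1.03 times the 7 core subunits in CS-Mpc2-/- libraries, and to 0.937, 0.934 and 0.932 times in fl/fl libraries, so the groups did not overlap. The accessory transcripts are the shorter ones, with a median length of 718 nt beside 1623 nt for the core. The 20 accessory subunits under 1000 nt gave ratios to the core of 0.724, 0.812 and 0.726 in CS-Mpc2-/- and 0.632, 0.625 and 0.655 in fl/fl libraries. The 8 longer ones gave 0.271, 0.320 and 0.308 in CS-Mpc2-/- and 0.305, 0.309 and 0.277 in fl/fl libraries, where the groups overlapped. Over all listed genes, those under 1000 nt summed to 0.109, 0.114 and 0.142 times the longer ones in CS-Mpc2-/- and to 0.0920, 0.0895 and 0.124 times in fl/fl libraries. Whether length accounts for the balance of accessory to core subunits was not tested.

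By position in the enzyme, the 11 members of the NADH-oxidising module had a median difference of 0.09, the 6 of the ubiquinone module 0.00 and the 18 of the proton-pumping membrane arm 0.05. These signs depended on the libraries and the length trend: the medians were -0.06, -0.14 and -0.09 without replicate 3 of both groups, and -0.04, -0.13 and -0.16 with the length trend removed. The 4 members called without fl/fl replicate 3 comprise 3 of the 18 membrane arm subunits and Ndufa4, where 10.9% of all genes were called. With 3 calls the membrane arm is not set apart from all genes, and the modules were not tested against each other.

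Of 12 regulators known to act on respiratory chain genes, all listed, 8 had negative and 4 positive differences, with a median of -0.26, and none passed the test with all 6 libraries. Ppargc1a, the transcriptional coactivator PGC-1α, had 55.0, 98.6 and 117 ppm in CS-Mpc2-/- libraries and 199, 207 and 118 ppm in fl/fl libraries, a difference of -0.97 (SE 0.28, limma adjusted p = 0.226). Ppara, a nuclear receptor for fatty acids, had 160.4, 155 and 184 ppm in CS-Mpc2-/- libraries and 256, 276 and 235 ppm in fl/fl libraries, a difference of -0.61 (SE 0.16, adjusted p = 0.220). For both genes every CS-Mpc2-/- library was below every fl/fl library, for Ppargc1a by less than 1 ppm at fl/fl replicate 3. Without fl/fl replicate 3, limma called 3 of the 12, Ppargc1a, Ppara and the coactivator Ppargc1b, all lower, with adjusted p-values of 0.00799, 0.0191 and 0.0474, where 4.40% of all genes were called lower. Without replicate 3 of both groups, Ppargc1a and Ppara were called lower and Ppargc1b was not (adjusted p = 0.0806), where 5.30% of all genes were called lower. No higher call was made in that list in either fit. The 43 nuclear subunits of complexes II to V had 22 positive and 21 negative differences and a median of 0.04 with all 6 libraries, and 0 were called. Without fl/fl replicate 3, 7 of them were called higher and 3 lower, against 3 and 1 of the 44 Nduf genes and 10.9% of all genes, and without replicate 3 of both groups 6 were called higher and 4 lower, against 12.5% of all genes. The difference between the sets in these counts was not tested. The smallest p-values there were those of Atp5l, a subunit of ATP synthase, at 30.3 ± 3.54 ppm in CS-Mpc2-/- and 17.7 ± 3.36 ppm in fl/fl libraries, and of Cox8a, a subunit of cytochrome c oxidase, at 78.0 ± 10.4 ppm in CS-Mpc2-/- and 50.3 ± 10.4 ppm in fl/fl libraries (limma adjusted p = 0.223 and 0.247).

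Several Nduf values can hold coverage from other genes. Processed copies at 95% identity or more cover 75.7% of the Ndufs3 transcript, 61.3% of Ndufs6, 50.2% of Ndufb11, 40.2% of Ndufb4, 37.0% of Ndufb3, 36.2% of Ndufa12 and 13.5% of Ndufab1. Exons of a neighbouring gene on the other strand overlap 39.0% of Ndufb6 (Smim27), 30.0% of Ndufa13 (Tssk6), 20.0% of Ndufb5 (Mrpl47), 12.9% of Ndufb11 (Rbm10) and 12.8% of Ndufa11 (Vmac). Exons on the same strand overlap 31.9% of Ndufb2, 28.6% of Ndufb9 and 19.7% of Ndufb8. How such reads were assigned is not given in the sources used here, so the values of these genes are uncertain to that extent.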

How the data were processed

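The authors deposited 1 table of genes with a coverage signal per library, which they scaled to nearly equal column totals, as read from the values. At least 99.9917% of a library's values are whole multiples of its smallest value (tolerance 0.01) and behave as aligned bases, so counting intervals are not given. The authors' ratio of group means and unadjusted p-value come from the deposited columns. Per the submitters' processing notes the build was mm10. Aligner, counting and strand setting: not given in the sources used here.

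Values were divided by library totals (ppm) and compared as log2(ppm + 1), which understates changes of low genes, by limma 3.58.1 (intensity trend, two-sided) in R 4.3.3, with genotype as the only term and Benjamini-Hochberg adjustment over 12072 genes at 0.05. A filter at a mean of 1 ppm removed 0 genes. The fit was tested on simulated data. Gene positions and transcript lengths (99.3% of genes) came from GENCODE M21, copies from blastn 2.17.0. The members and all lists were chosen with earlier results of these data known. All 6 values are given for up to 4 members per role with the smallest unadjusted p, for the most abundant member of each role, and for up to 5 members called without fl/fl replicate 3. One gene that this rule names is not reported here and is not drawn, though counts, medians and sums hold all 44 genes. The values of Ndufc1 were added after they were seen. Alternatives were other scalings, filters, pseudocounts, limma settings, a replicate block, length trend removal and libraries left out.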

Additional observations from a re-analysis of the deposited data

How the results depend on the processing

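The 18 alternatives were applied to 18 named genes. Of the 324 resulting values, 307 kept their direction and their side of the threshold, 8 passed it newly and 9, in 5 genes, changed sign. All genes: limma array weights called 321 higher and 222 lower with 0 Nduf genes. Omitting single libraries gave 0 to 786 higher and 0 to 531 lower calls, with 0 to 3 and 0 to 1 among Nduf genes; every call came from omitting fl/fl replicate 3. Omitting replicate 3 of both groups gave 874 and 640 calls, with 3 and 1 among Nduf genes, a median Nduf difference of -0.065 and one of -0.060 for Ndufs4, Ndufs6 and Ndufv3. With length trends removed the medians were -0.13 for all Nduf genes, -0.16 for the core and -0.14 for the Ndufa, Ndufab, Ndufb and Ndufc subunits. The core median ranged from -0.12 to 0.014 with single libraries omitted. The cause of these shifts was not tested.

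Signs changed for Ndufs6 (-0.039 with length trends removed, -0.060 without replicate 3 of both groups) and Ndufa4l2 (-0.076 with length trends removed). With single libraries omitted, Ndufa4l2 ranged from -0.016 to 0.25, Ndufs4 from -0.036 to 0.38, Ndufv3 from -0.41 to 0.10 and Ndufb8 from -0.13 to 0.0071. Upper quartile and median-of-ratios scaling put the assembly factor median at -0.01 and the Nduf median at 0.01, shifting all genes alike.

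Deviations from the group mean correlated at 0.07, -0.04 and -0.07 between same-numbered libraries of the 2 genotypes. Between differently numbered ones the correlations were -0.13 to 0.14. With 3 libraries per group these values cannot show whether same-numbered libraries shared a preparation or batch. With a replicate block limma called 0 genes, 0 of them Nduf, and the Nduf median stayed 0.05. Depth was lowest in fl/fl replicate 1, and of the roles the assembly factors, at 6.05 to 10.5 ppm per kb, had the least coverage.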
